A study of Homo sapiens with 6 samples.

Results

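The genes described here are the zinc finger genes of human chromosome 19 whose symbol is ZNF, ZSCAN or ZKSCAN followed by digits alone, and whose level reached 1 TPM or more in 3 or more of the 6 libraries. TPM is a relative transcript level, corrected for the length of the gene and set to the same sum for every library. Of 245 chromosome 19 genes with such a name, 206 met this minimum and 39 did not, and the 206 were among 13680 genes tested in all. The members were thus chosen by their own TPM levels, and the set was proposed with results of the same 6 libraries known. All cells were HUVECs, primary wild-type endothelial cells of the umbilical vein bought from a supplier, passaged 3 times. They were transfected with a lipid reagent and 50 nM of a miR-409-3p mimic (3 libraries) or 50 nM of a non-specific control RNA (3 libraries), and RNA was taken at 48 h. The titles of both groups also call the cells not treated, with no word on which treatment is meant. Each RNA sample pooled 4 technical replicates, and the labels call the 3 libraries of a group biological replicates without naming separate donors, so p-values measure the spread between these libraries.

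C2H2 zinc finger genes are the largest family of human transcription factors, and each finger is a short loop that holds a zinc ion and can contact a few bases of DNA. Many of them, above all on chromosome 19, also carry a KRAB domain, which binds TRIM28 (KAP1). TRIM28 in turn brings SETDB1 and other heterochromatin proteins to the bound site, often a retrotransposon. The family grew by tandem duplication, so neighbours on chromosome 19 tend to be related in sequence. A microRNA guides the silencing machinery to transcripts that pair with its seed, the bases near its 5′ end.

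The mature microRNA and the 7mer-m8 and 8mer sites for its seed in 3 of the genes described first are shown because the mimic carries this seed. Capitals mark seed bases 2 to 8 in the microRNA, and in the sites the 7 bases that pair with them, with a following A where there is one. The microRNA is from RefSeq on GRCh38.p14 and the sites are from GENCODE 29 transcripts on GRCh38, each read 5′ to 3′ on the transcript strand. The ZNF616 sites lie at chr19:52113176-52113197 (minus strand, 3′ UTR) and chr19:52115647-52115668 (minus strand, coding sequence). ZNF550 also has a 7mer-A1, a weaker class of match, in its 3′ UTR, which is not printed. The ZNF254 site lies at chr19:24129306-24129327 (plus strand, 3′ UTR), and the ZNF550 site at chr19:57547243-57547264 (minus strand, coding sequence). In these windows the search found the site itself only, which says nothing of whether it was bound.
hsa-miR-409-3p: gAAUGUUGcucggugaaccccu
ZNF616 3′ UTR: gaataactaccagaCAACATTt
ZNF616 coding: gcaaggtcttcagtCAACATTc
ZNF254 3′ UTR: ttagcttttcaattCAACATTt
ZNF550 coding: gagcccacctaattCAACATTA

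From the steps in the TPM values, each library held an estimated 29.8 to 35.8 M assigned reads. All 12 endothelial markers on the list were measured, and their summed level was 5761 to 6034 TPM in control and 6139 to 6202 TPM in mimic libraries. Summed levels of the other cell types' lists overlapped between groups: 21.2 to 26.5 against 22.6 to 24.9 TPM for 10 smooth muscle and fibroblast markers, 16.7 to 19.7 against 16.9 to 19.1 TPM for 5 leukocyte markers, and 1.77 to 2.66 against 1.58 to 2.58 TPM for 4 epithelial markers. PTPRC, CD3E, KRT5, KRT14 and the 3 haemoglobin genes were listed at 0 in all 6 libraries. In bulk RNA, fewer cells of a type and less RNA per cell cannot be told apart. The endothelial sum was higher in every mimic library, but of the 12 markers only CLEC14A was (8.33%, against 5.16% of all genes). In group means 10 markers were higher and 2, ROBO4 and CDH5, lower, and 0 passed the test used below. The sum rose where most zinc finger levels below fell, and its part in them was not tested.

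Most chromosome 19 ZNF genes were low in these cells and lay slightly below the control level in mimic libraries, and 1 of them, ZNF616, passed the test. The median of the 206 genes' mean levels was 4.74 TPM, with a range of 0.990 to 147 TPM, and 36 genes were above 10 TPM. Fold changes here are differences of group means of log2(TPM + 1), mimic minus control, so genes near the minimum are compressed toward 0. With limma and Benjamini-Hochberg adjustment over all 13680 genes at a threshold of 0.05, 1 member was lower, against 0.300% of all genes, and 0 were higher, against 0.132%. The other 205 did not pass.

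The members' median log2 fold change was -0.15, with quartiles of -0.27 and 0.01 and a range of -0.73 to 0.52, while the median of all genes tested was -0.02. There were 151 members with a value below 0 (73.3%) and 55 above it, while 56.6% of all genes tested were below 0. At an unadjusted limma p under 0.05, 51 members (24.8%) were lower, against 7.64% of all genes, and 8 (3.88%) were higher, against 3.05%. All 3 mimic libraries lay below all 3 controls for 61 members (29.6%), against 10.5% of all genes, and above them for 11 (5.34%), against 5.16%. The share on the lower side was thus above the background and the share on the higher side near it. Of the 206, 191 reached 1 TPM in all 6 libraries, and of these 140 were lower, with a median of -0.14. Fitted without a minimum, the 244 genes with the name that were above 0 in any library had a median of -0.12, with 172 lower.

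The size of the shift differed between mimic libraries. Set against the control mean, the members' median was -0.04, -0.0043 and 0.04 in control libraries 1 to 3, and -0.14, -0.07 and -0.21 in mimic libraries 1 to 3. All genes tested gave -0.05, 0.03 and 0.02 in control and -0.03, -0.0035 and -0.02 in mimic libraries. The 3 mimic medians of the members were below all 3 control medians, while for all genes the groups overlapped, and mimic library 2 stood nearest to the controls. For the 777 other tested genes of chromosome 19 the mimic libraries had the reverse order, at -0.02, -0.09 and 0.06, against -0.04, 0.05 and -0.02 in control libraries. Summed over the 206 genes, the level was 1614, 1657 and 1698 TPM in control libraries (mean 1656 ± 42.2, SD, n = 3) and 1541, 1587 and 1484 TPM in mimic libraries (mean 1537 ± 51.5, SD, n = 3). The sums did not overlap, and the ratio of the means was 0.928.

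Zinc finger genes elsewhere in the genome had a median near that of the members, and the other genes of chromosome 19 a median near that of all genes. The 230 tested genes with the same naming outside chromosome 19 had a median log2 fold change of -0.12, with 181 lower, 7 past the threshold on the lower side and 1 on the higher side. The 777 other tested genes of chromosome 19 had a median of -0.02, with 447 lower (57.5%), and 3 lower and 2 higher past the threshold. All 3 mimic libraries lay below all 3 controls for 79 of the 230 (34.3%) and for 75 of the 777 (9.65%). The difference between these sets was not tested.

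**Figure D1:**
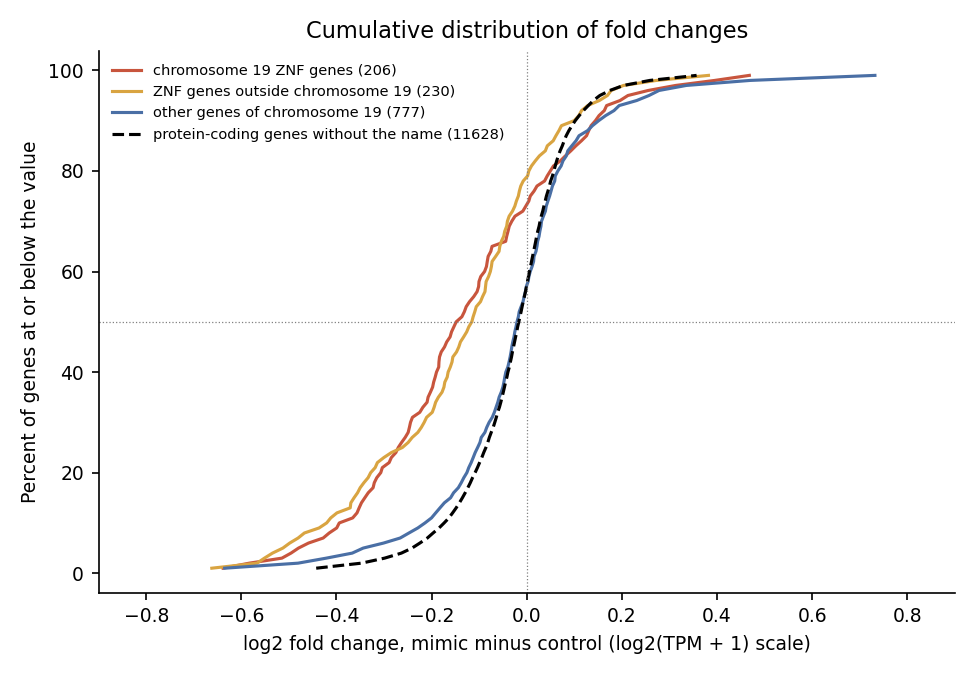
Cumulative percent of genes (vertical axis) by log2 fold change, mimic minus control of log2(TPM + 1) (horizontal axis), from percentile 1 to 99 of 4 gene sets with the number of genes in brackets. Both zinc finger curves lie to the left of the others up to about 0 and cross 50 percent at -0.15 and -0.12, against -0.02 for other genes of chromosome 19 and for protein-coding genes without the name.

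ZNF616 encodes a KRAB protein in which 21 fingers were counted. Its level was 9.74, 11.2 and 11.7 TPM in control libraries and 6.39, 6.70 and 6.88 TPM in mimic libraries. The groups lay well apart: the mimic mean of 6.65 ± 0.250 TPM was 0.612 times the control mean of 10.9 ± 1.01 TPM (SD, n = 3 each). It fell by 0.63 on the log2(TPM + 1) scale (SE 0.09, adjusted p = 0.0262, limma). The gene lies at chr19:52113091-52139922 on the minus strand (GRCh38). Its span overlaps AC011468.2 on the same strand, so reads of the pair may be shared. Leaving out any control library, mimic library 1 or mimic library 2 left ZNF616 short of the threshold, with adjusted p between 0.0528 and 0.134 (limma). Without mimic library 3 it passed at an adjusted p of 0.0456.

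ZNF254, ZNF550, ZNF626 and ZNF567 were further KRAB zinc finger genes at 0.511 to 0.674 times the control mean that did not pass. ZNF254 (13 fingers) was at 18.8, 19.7 and 21.4 TPM in control libraries and 13.95, 14.5 and 11.9 TPM in mimic libraries, a log2 fold change of -0.54 (SE 0.09, adjusted p = 0.0524, limma). ZNF550 (8 fingers) was at 5.29, 4.82 and 4.34 against 2.46, 2.92 and 2.26 TPM, a log2 fold change of -0.71 (SE 0.12, adjusted p = 0.0525, limma). Neither gene's groups overlapped. ZNF626 (12 fingers) had the lowest fold change of all members, -0.73 (SE 0.14, adjusted p = 0.0773, limma), with 3.74, 4.25 and 5.22 TPM in control and 2.23, 2.58 and 1.94 TPM in mimic libraries. ZNF567 (14 fingers) was at 7.51, 5.71 and 7.55 against 4.47, 4.22 and 3.53 TPM, a log2 fold change of -0.64 (adjusted p = 0.0847, limma). All 4 were lower in each mimic library than in each control library. ZNF550 lies antisense to ZNF549, ZNF567 to ZNF850 and ZNF254 to BNIP3P40, and since the use of strand is not given in the sources used here, reads from the 2 strands cannot be told apart. ZNF254 also overlaps AC092279.1 and AC092279.2, and ZNF626 AC010636.2, on the same strand.

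At an adjusted p under 0.1 (limma), 9 members were lower, against 0.980% of all genes, and 2 were higher, against 0.424%. Besides the 5 above, the lower ones were 4 more that lay lower in every mimic library, named after their values were seen. ZNF30 was at 7.38, 8.45 and 8.16 TPM in control and 5.82, 5.86 and 5.36 TPM in mimic libraries. ZNF234 was at 8.19, 8.21 and 8.72 against 6.12, 6.21 and 5.05 TPM. ZNF28 was at 11.2, 12.01 and 13.03 against 8.54, 9.10 and 9.24 TPM. These were KRAB genes with 16, 18 and 15 fingers and log2 fold changes of -0.43, -0.47 and -0.39. ZNF181, a KRAB gene with 11 fingers, was at 4.72, 5.03 and 4.404 against 3.30, 3.02 and 3.00 TPM, a log2 fold change of -0.48. ZNF28 overlaps ZNF468 on the same strand and AC008813.1 on the other, so its reads may be shared.

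The 2 on the higher side were ZNF792 and ZNF256, again KRAB genes, with 12 and 15 fingers. ZNF792 was at 13.8, 16.2 and 15.8 TPM in control libraries and 20.5, 22.4 and 21.6 TPM in mimic libraries, so the mimic mean of 21.5 ± 0.934 TPM was 1.41 times the control mean of 15.3 ± 1.29 TPM (SD, n = 3 each). Its log2 fold change was 0.47 (SE 0.08, adjusted p = 0.0503, limma), just short of the threshold. ZNF256 was at 6.01, 7.17 and 5.86 against 8.74, 9.28 and 10.7 TPM, with a log2 fold change of 0.52 (SE 0.10, adjusted p = 0.0847, limma). Neither gene's groups overlapped, and no other annotated gene overlapped either gene.

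The 11 members higher in every mimic library were 5.34% of the set, near the 5.16% of all genes. They also held ZNF441, ZNF350, ZNF551, ZNF134, ZNF77, ZNF844, ZNF766, ZNF433 and ZNF345, none of which passed. ZNF441 was at 2.69, 2.53 and 3.33 TPM in control and 4.74, 4.86 and 3.93 TPM in mimic libraries, and its log2 fold change was 0.52 (adjusted p = 0.145, limma). ZNF350, also called ZBRK1, is a repressor known as a partner of BRCA1. It was at 5.26, 4.16 and 4.98 against 6.44, 7.31 and 6.39 TPM (log2 fold change 0.41, adjusted p = 0.163, limma). ZNF551 was at 4.75, 4.20 and 4.37 against 5.72, 5.86 and 5.77 TPM, and ZNF134, which lacked the KRAB pattern, at 11.2, 10.6 and 10.9 against 13.8, 14.2 and 12.1 TPM. ZNF551 overlaps ZNF154 and ZNF350 overlaps ZNF350-AS1, each on the other strand. ZNF844, ZNF766 and ZNF433 also overlap other annotated genes.

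**Figure D2:**
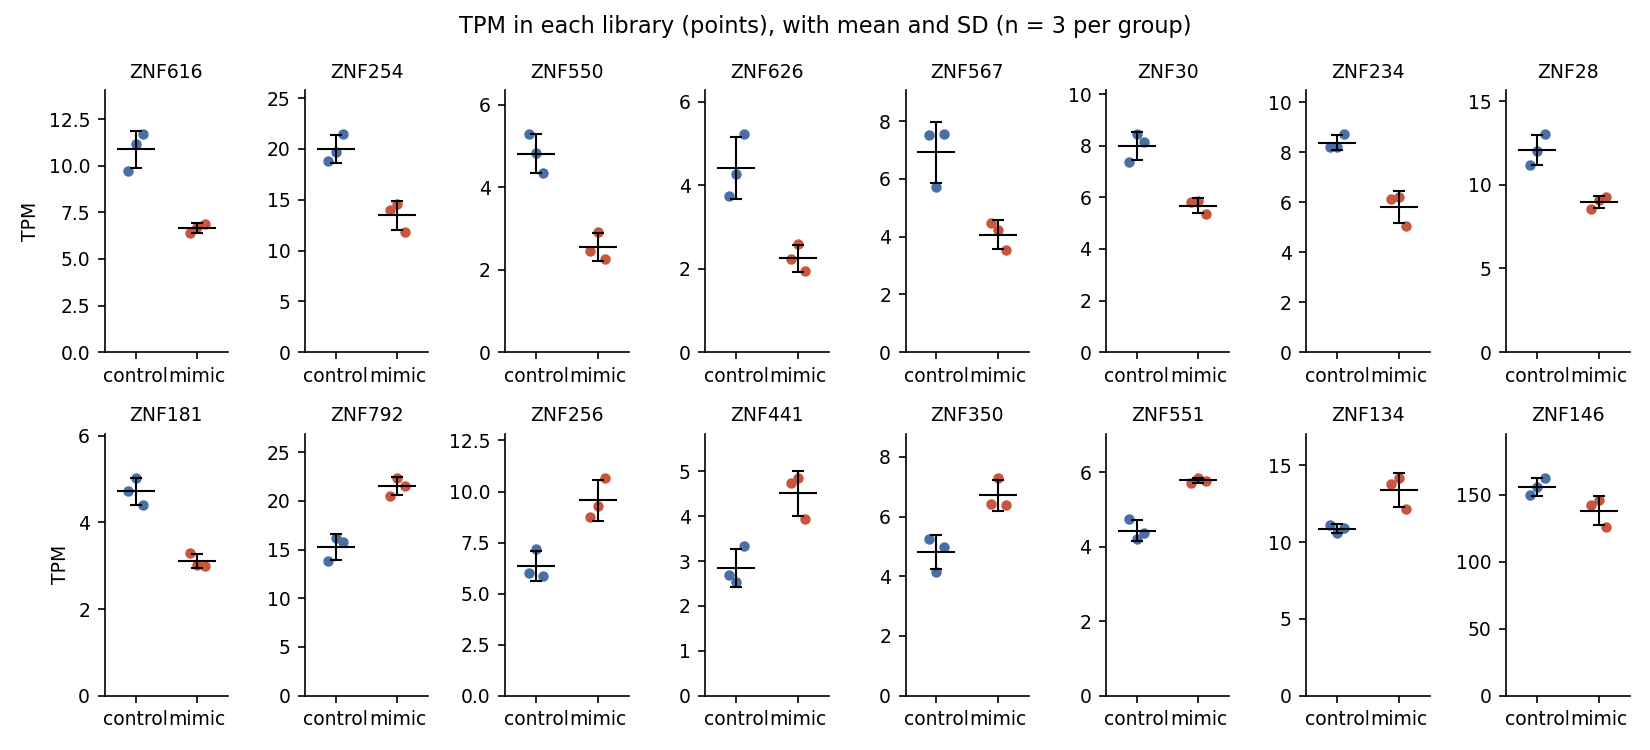
TPM (vertical axes, each starting at 0) of 16 genes in the 3 control (blue) and 3 mimic (red) libraries, 1 point per library, with the mean and SD as black bars. The first 9 panels are genes lower in every mimic library, from ZNF616 at 0.612 times the control mean, the next 6 are genes higher in every mimic library, and the last is ZNF146, the most abundant member.

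In position order, the lower values were spread along the chromosome. Members whose start lay at most 1 Mb from the next were joined into a cluster, which gave 15 clusters, 10 of them with at least 3 members and 200 members in all. All 10 had a median below 0, from -0.28 to -0.0021, 9 of them below the median of all genes tested, and all 10 held members on both sides of 0. With a gap of 0.5 Mb, 11 of 18 clusters had at least 3 members, and their medians had the same range. Over all genes tested, 10.5% lay below and 5.16% above in every mimic library, the background for the cluster counts that follow.

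In the 3 clusters nearest the short-arm end, the library medians of the 2 groups overlapped. From ZNF554 to ZNF77 (chr19:2819874-2944971), 3 of 4 genes were lower, with a median of -0.14. This sign turned (0.17) with a minimum of 5 TPM, which kept ZNF57 and ZNF77. Here ZNF555 was at 3.11, 2.93 and 2.76 TPM in control against 2.16, 2.62 and 1.89 TPM in mimic libraries, and ZNF77 at 7.13, 8.51 and 9.48 against 10.3, 12.7 and 10.2 TPM, so both moved without overlap, in opposite directions. From ZNF557 to ZNF846 (chr19:7069444-9793180), 8 of 14 were lower, with a median of -0.05. Its lowest member, ZNF561, was at 16.7, 19.7 and 18.3 against 13.4, 15.03 and 13.9 TPM (log2 fold change -0.35, adjusted p = 0.121, limma), and ZNF358 was the highest at 0.14. From ZNF653 to ZNF791 (chr19:11483427-12640098), 9 of 17 were lower, with a median of -0.0021, and 3 members lay below and 3 above in every mimic library (17.6% each). ZNF443 was lowest there at -0.34, with mimic libraries at 3.60, 3.59 and 3.63 TPM and controls at 5.66, 4.06 and 4.90 TPM, and ZNF441 was highest.

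Along the rest of the short arm, both clusters had all 3 mimic medians below the control medians. From ZNF101 to ZNF43 (chr19:19668796-21852125), 18 of 21 genes were lower, with a median of -0.21, ZNF626 lowest and ZNF14 highest at 0.21. In every mimic library, 6 lay below (28.6%) and 0 above. ZNF14 was at 5.99, 5.30 and 4.75 TPM in control and 5.43, 8.51 and 5.45 TPM in mimic libraries, and only mimic library 2 stood above the controls. From ZNF730 to ZNF254 (chr19:23075210-24129961), 5 of 7 were lower, with the lowest median of the 10, -0.28. Its lower members include ZNF681 (-0.40), which met the minimum through the control libraries alone. The median was not taken without ZNF681, so the cluster's place as the lowest may rest on that gene. This cluster holds ZNF91, a KRAB gene with 31 fingers known to bind SVA retrotransposons. ZNF91 was at 7.76, 7.32 and 7.80 against 6.37, 6.46 and 5.41 TPM (log2 fold change -0.29, adjusted p = 0.272, limma). ZNF675, highest there at 0.13, overlapped between groups.

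In the next cluster, from ZNF302 to ZNF792 (chr19:34677639-34964049), 4 of 5 genes were lower, with a median of -0.18, and close neighbours differed in direction. ZNF30 (chr19:34926903-34945170, plus strand) was at 0.710 times the control mean and ZNF792 (chr19:34956354-34964049, minus strand) at 1.41 times. ZNF181 was the lowest of the 5. From ZNF565 to ZNF573 (chr19:36182060-37817300), 15 of 21 were lower, with a median of -0.19, the lowest being ZNF567. In every mimic library, 8 lay below (38.1%) and 1 above (4.76%). The 1 above was ZNF345, at 2.72, 2.54 and 2.92 TPM in control and 3.19, 3.28 and 3.10 TPM in mimic libraries, which overlaps ZNF790 and ZNF829 on the other strand. From ZNF575 to ZNF296 (chr19:43525497-45076588), 19 of 23 were lower, with a median of -0.18, 9 below (39.1%) and 0 above in every mimic library. ZNF230 was lowest there at 2.30, 2.19 and 2.59 against 1.70, 1.29 and 1.18 TPM (log2 fold change -0.50, adjusted p = 0.223, limma), and ZNF155 highest at 0.07.

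The 2 largest clusters lie toward the end of the long arm. From ZNF175 to ZNF331 (chr19:51571298-53580269), 25 of 35 genes were lower, all 35 with the KRAB pattern, with a median of -0.13. In every mimic library, 11 lay below (31.4%) and 2 above (5.71%), the latter near the share of all genes. It holds ZNF616 as its lowest and ZNF350 as its highest member. From ZNF628 to ZNF446 (chr19:55476332-58481230), 41 of 53 were lower, with a median of -0.15, and fold changes ran from ZNF550 to ZNF256. There 15 lay below (28.3%) and 3 above (5.66%), the latter again near the share of all genes. The 5 smaller clusters held 6 members, of which ZNF574 and ZNF526, neighbours without the KRAB pattern, were lower in every mimic library, at -0.30 and -0.40.

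**Figure D3:**
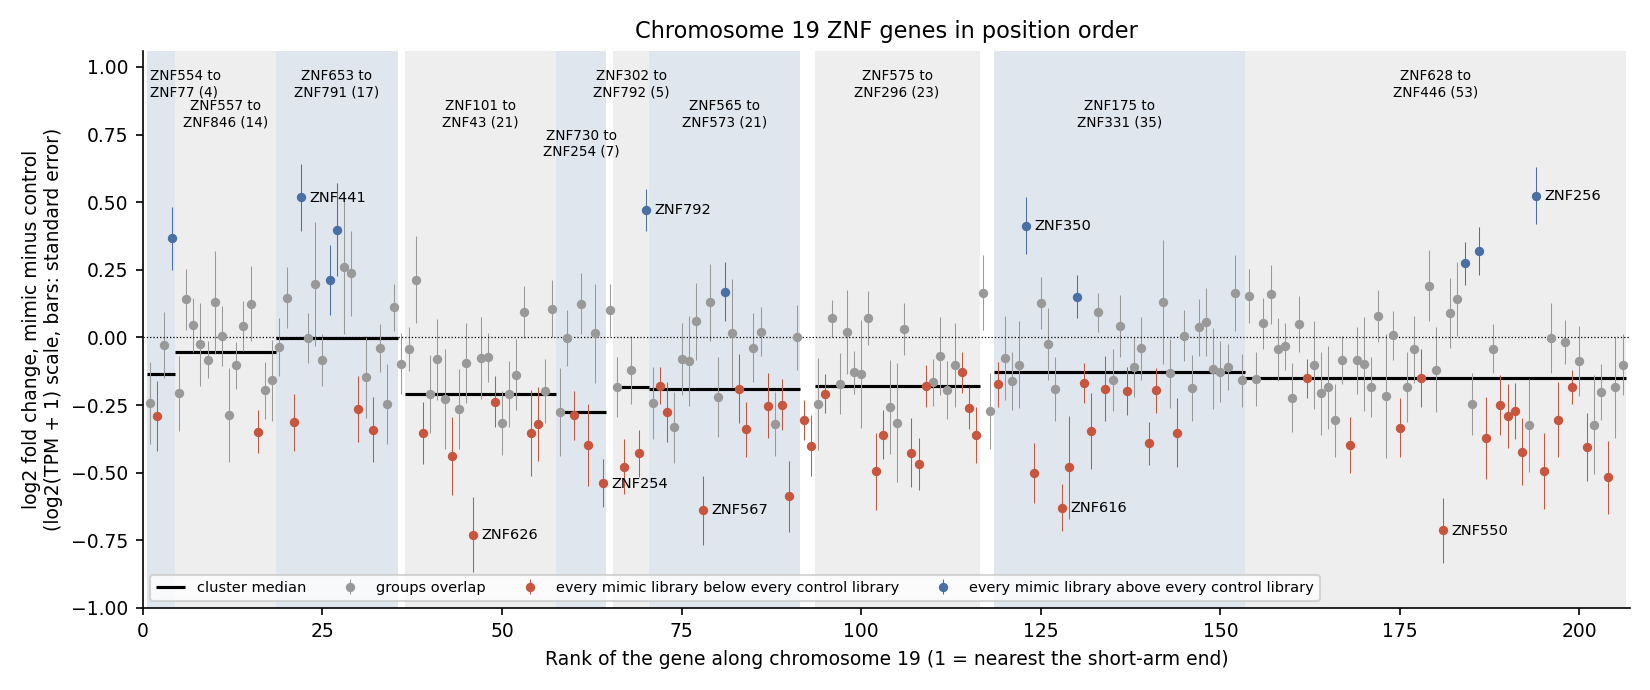
Log2 fold change of the 206 genes, mimic minus control of log2(TPM + 1), with the standard error (vertical axis), by rank along chromosome 19 (horizontal axis). Shaded bands are the 10 clusters with at least 3 members, named by first and last gene with the number of genes, and black lines their medians from -0.28 to -0.0021; the 61 red and 11 blue points are members with no overlap between groups.

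Library by library, the cluster medians kept the order of the whole set in part. In 7 of the 10 clusters all 3 mimic medians were below all 3 control medians, the exceptions being the 3 nearest the short-arm end. Mimic library 3 was lowest in 8 clusters and mimic library 1 in the other 2. In the cluster from ZNF730 to ZNF254 the mimic medians were -0.23, -0.09 and -0.42 and the control medians -0.08, -0.02 and 0.06. In the 53-gene cluster they were -0.14, -0.11 and -0.17 against -0.02, 0.0046 and 0.01, the narrowest spread between mimic libraries. Mimic library 3 also had the lowest estimated depth, 29.8 M reads, and its part in the result was not tested.

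**Figure D4:**
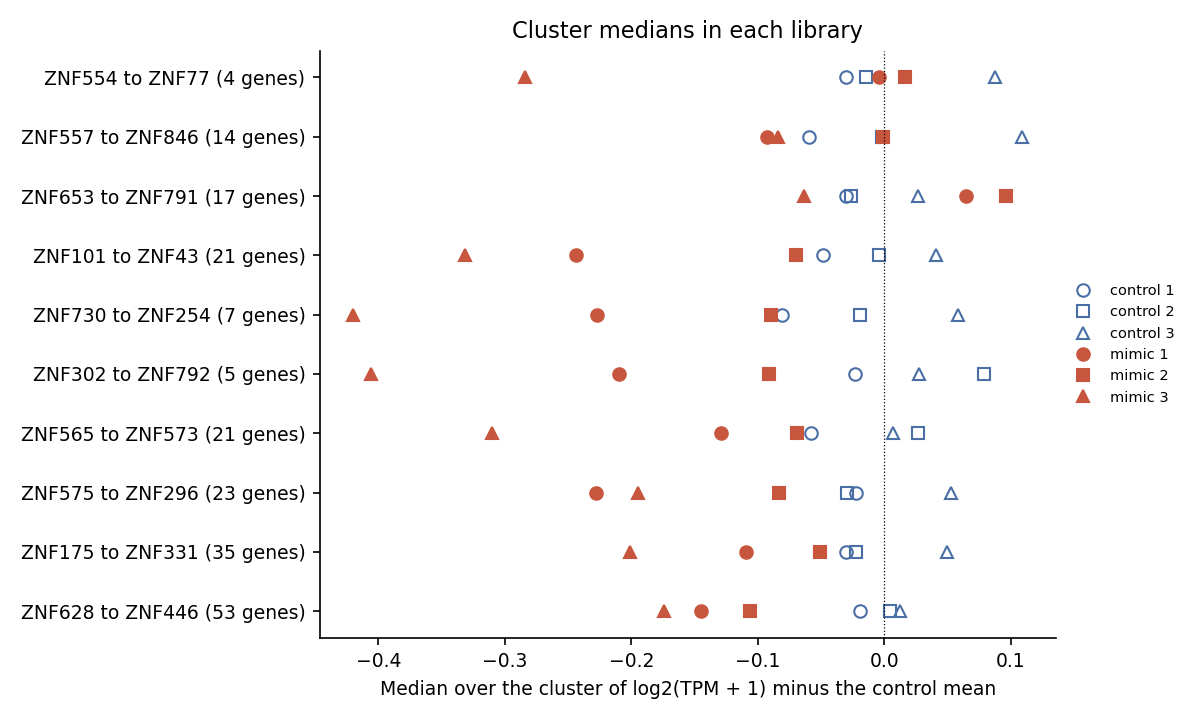
Median over each cluster's genes of log2(TPM + 1) minus the control mean (horizontal axis) in the 3 control (open blue) and 3 mimic (filled red) libraries, for the 10 clusters in position order (vertical axis). Mimic library 3 reaches -0.42 in the cluster from ZNF730 to ZNF254, and mimic library 2 is the mimic library nearest to the controls in most clusters.

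Neighbours in the cluster with ZNF616 share stretches around their seed matches, and these sites are printed to compare them with the genes' levels. Capitals mark the 7 bases that pair with the seed. The first pair of sites are in the coding sequence (chr19:52115647-52115668 and chr19:52066389-52066410, minus strand), as are the next 2 (chr19:52157109-52157130 and chr19:52067179-52067200, minus strand). The last 3 are on the plus strand at chr19:52290723-52290744 and chr19:52322818-52322839, both coding, and chr19:52366791-52366812, in the 3′ UTR.
ZNF616 coding: gcaaggtcttcagtCAACATTc
ZNF841 coding: gcaaggtcttcagtCAACATTc
ZNF836 coding: cctagtgtccaaacCAACATTt
ZNF841 coding, other site: cctggtgtccaaacCAACATTt
ZNF766 coding: gttcatacctagcaCAACATTg
ZNF480 coding: tttcatacctagcaCAACATTg
ZNF610 3′ UTR: attcacacctagcaCAACATTg

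Genes with like sites had values on both sides of 0. ZNF616 fell, while ZNF841, with the identical 22 bases, was at 7.57, 7.73 and 9.02 TPM in control and 8.08, 5.88 and 7.04 TPM in mimic libraries, which overlap (log2 fold change -0.19, adjusted p = 0.666, limma). These genes are not matched in their other sites, since ZNF616 also has a 7mer-m8 in its 3′ UTR, where ZNF841 had no match. ZNF836 was at 3.07, 3.87 and 3.70 against 2.72, 2.84 and 1.40 TPM, a log2 fold change of -0.48 (adjusted p = 0.397, limma). ZNF766 was higher in every mimic library (7.62, 7.06 and 7.59 against 8.16, 8.84 and 8.03 TPM). ZNF480, which has a second coding site and an 8mer in its 3′ UTR, was lower in every mimic library at 16.2, 16.6 and 16.5 against 14.7, 15.7 and 13.3 TPM. ZNF610 was at 1.496, 1.49 and 1.59 against 1.00, 0.983 and 0.970 TPM. None but ZNF616 passed the test.

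Across the set, members with a seed match in the 3′ UTR had medians from -0.20 to -0.13 and members without one there -0.10. In the coding sequence the 8mer and 7mer-m8 classes lay below the members without a match, and the 7mer-A1 and 6mer classes did not. The 3′ UTR of the transcript with the longest coding sequence was searched in the 195 members where it had at least 30 bases. An 8mer (CAACATTA) was found in 3 members (median log2 fold change -0.17), a 7mer-m8 (CAACATT) as the best match in 22 (-0.20), a 7mer-A1 (AACATTA) in 27 (-0.18), a 6mer (AACATT) in 46 (-0.13) and none in 97 (-0.10). In protein-coding genes without the name the same 5 classes had medians of -0.02, -0.02, -0.01, -0.01 and -0.02. A 7mer-m8 or 8mer was present in 12.8% of the members and 11.3% of the other coding genes searched. The best match was a 7mer-A1 in 13.8% and 8.09%, and a 6mer in 23.6% and 20.6%. In coding sequences the shares were 7.77% and 12.3% for a 7mer-m8 or 8mer. They were 3.88% and 4.76% for a 7mer-A1, and 26.2% and 14.3% for a 6mer. There the 3 members whose best match was an 8mer had a median of -0.31 and the 13 at 7mer-m8 one of -0.19. The 8 at 7mer-A1 and the 54 at 6mer both had -0.12, and the 128 lacking any coding match -0.14. In other coding genes the same 5 coding classes all had a median of -0.02. In the transcripts searched, ZNF792 and ZNF256 had no match in the 3′ UTR, and neither had ZNF626, the member with the lowest fold change.

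Members with and without a KRAB domain pattern both had medians below 0. The pattern was found in 175 members, of which 131 were lower, with a median of -0.15, 52 below and 9 above in every mimic library. Of the 31 without it, 20 were lower, with a median of -0.10, 9 below and 2 above. Over all genes tested, 10.5% lay below and 5.16% above. A SCAN pattern, which marks a domain through which these proteins pair, was found in 5 members. All 5 had values below 0, as had 73.3% of members and 56.6% of all genes tested. Their values ran from -0.41 to -0.0018, with a median of -0.10, and 2 of the 5 lay below in every mimic library. The median member had 12 fingers, with quartiles of 9 and 15. The 13 members with 0 to 5 fingers had a median of -0.02 and the 42 with 16 or more -0.17. Over the 206 genes, which share the 6 libraries, Spearman's rho with the log2 fold change was -0.10 for fingers, 0.10 for GC content, 0.14 for mean TPM and -0.03 for exon length, all weak.

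The members' median was below that of other coding genes in most ranges of level and GC content. Members' transcripts had a median GC content of 42.4%, against 48.5% in other coding genes. In 4 bins of the members of near equal size by GC content, from low to high, the medians were -0.19, -0.10, -0.17 and -0.11, and other coding genes in the same ranges had medians between -0.02 and -0.0076. In 4 such bins by mean TPM the members had medians of -0.17, -0.18, -0.04 and -0.14, against -0.01, -0.02, -0.04 and -0.02 in other coding genes. The third bin by TPM was thus near the value of other genes at that level. The 59 members that overlap no other annotated gene had a median of -0.11, with 40 lower. In 21 members over 20% of the 75-base stretches also occur in another gene, so their reads may be split. Without these 21, the median was -0.14 and 135 of 185 were lower.

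Promoters of members that stood out in either direction are shown to set the letters of lower and higher members side by side. They are the 250 bases before the start of the gene in RefSeq on GRCh38.p14, on the gene's strand: chr19:52139939-52140188 (minus) for ZNF616, chr19:24086937-24087186 (plus) for ZNF254, chr19:57559864-57560113 (minus) for ZNF550, chr19:34964230-34964479 (minus) for ZNF792 and chr19:57947707-57947956 (minus) for ZNF256. The ZNF254 window lies inside the GENCODE span of that gene, chr19:24033405-24129961, since RefSeq starts the gene further downstream. Capitals mark the letters of 2 of the 6 motifs searched on both strands, GGGCGG (the GC box bound by SP and KLF factors) and CCGGAAG (bound by ETS factors).
ZNF616: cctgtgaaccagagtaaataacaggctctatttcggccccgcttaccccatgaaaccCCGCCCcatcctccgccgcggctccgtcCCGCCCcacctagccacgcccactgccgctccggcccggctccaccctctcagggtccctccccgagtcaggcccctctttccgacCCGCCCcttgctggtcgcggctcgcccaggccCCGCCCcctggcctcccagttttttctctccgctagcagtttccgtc
ZNF254: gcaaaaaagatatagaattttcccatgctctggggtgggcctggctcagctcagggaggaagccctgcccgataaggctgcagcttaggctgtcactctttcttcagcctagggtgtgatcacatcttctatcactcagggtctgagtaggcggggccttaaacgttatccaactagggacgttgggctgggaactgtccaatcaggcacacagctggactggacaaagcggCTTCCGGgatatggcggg
ZNF550: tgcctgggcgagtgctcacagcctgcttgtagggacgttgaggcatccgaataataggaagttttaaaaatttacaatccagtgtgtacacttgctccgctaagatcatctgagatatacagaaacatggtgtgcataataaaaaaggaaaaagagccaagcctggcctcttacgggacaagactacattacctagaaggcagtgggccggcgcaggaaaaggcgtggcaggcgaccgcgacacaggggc
ZNF792: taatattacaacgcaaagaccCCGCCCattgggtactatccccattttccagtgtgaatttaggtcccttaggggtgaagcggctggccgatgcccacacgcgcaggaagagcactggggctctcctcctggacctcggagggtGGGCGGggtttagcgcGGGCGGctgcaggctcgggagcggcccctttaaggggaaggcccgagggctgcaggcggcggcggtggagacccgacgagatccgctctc
ZNF256: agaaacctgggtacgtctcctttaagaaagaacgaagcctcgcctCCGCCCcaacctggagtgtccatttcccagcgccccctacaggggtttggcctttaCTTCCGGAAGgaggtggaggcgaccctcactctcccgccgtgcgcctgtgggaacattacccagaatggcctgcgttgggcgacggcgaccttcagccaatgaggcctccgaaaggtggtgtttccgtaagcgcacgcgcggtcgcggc

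ZNF616 held 4 GC boxes, ZNF792 3 GC boxes, ZNF254 1 ETS match and ZNF256 both kinds, in which the ETS letters of the 2 strands overlap. The ZNF550 window held none of the 6 motifs. Of 185 members with a promoter in the table, 60 (32.4%) held the ETS letters, against 32.6% of 193 zinc finger genes outside chromosome 19, 16.7% of all genes tested and 8.82% of all 27305 promoters of the table. The 60 had a median log2 fold change of -0.18, with 49 lower, and the 125 without the letters -0.11, with 86 lower. Fold changes were split by the ETS letters only, among members only, and the difference was not tested. Of the 54 members with a promoter that were lower in every mimic library, 40.7% held the ETS letters and 53.7% the GC box. Of the 11 higher in every mimic library, the shares were 27.3% and 81.8%. The GC box was in 63.8% of members, 67.9% of all genes tested and 42.3% of all promoters, and TATAAA in 2.16%, 5.14% and 11.1%. TGACGTCA (CRE) was in 2.70%, 2.92% and 1.77%, GCATGCGC (NRF1) in 2.16%, 4.99% and 2.81%, and AAGATGGC (YY1) in 4.32%, 1.91% and 1.37%. A match is a run of letters, and binding was not measured here.

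The 5 most abundant members all lacked the KRAB pattern, and none passed the test. ZNF146, a protein made almost only of fingers (10 were counted), was at 149.8, 155.5 and 162.9 TPM in control and 142.5, 145.9 and 125.6 TPM in mimic libraries, without overlap but with a log2 fold change of -0.18 (SE 0.07, adjusted p = 0.379, limma). ZNF428 was at 125, 111 and 109 against 123, 114 and 124 TPM. ZNF358 was at 54.1, 59.6 and 53.3 against 62.5, 51.2 and 72.4 TPM, ZNF787 at 36.6, 44.6 and 36.9 against 40.7, 36.1 and 45.6 TPM, and ZNF580 at 27.2, 27.7 and 24.6 against 23.7, 25.1 and 28.99 TPM. These 4 overlapped between groups, with log2 fold changes of 0.07, 0.14, 0.05 and -0.03. The sign of ZNF787 turned without mimic library 3 (-0.03), and that of ZNF580 without mimic library 1 (0.03) and under quantile scaling (0.0017).

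Some members are named for a known role rather than by their values. ZNF274, which recruits SETDB1 to the 3′ ends of zinc finger genes, was at 6.81, 7.30 and 6.64 TPM in control and 6.55, 6.87 and 7.04 TPM in mimic libraries, with a log2 fold change of -0.02. ZNF224, a KRAB repressor, was at 7.54, 7.63 and 8.27 against 7.94, 9.01 and 7.16 TPM. ZNF473, a factor in the processing of histone mRNA, was at 3.95, 4.73 and 4.07 against 4.22, 3.03 and 2.88 TPM. The imprinted gene ZNF331 was at 5.29, 6.19 and 5.86 against 4.90, 5.53 and 4.79 TPM. All 4 overlapped between groups, and none passed the test.

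Near the minimum level, the members just inside were ZNF382 at 1.14, 1.08 and 0.918 TPM in control and 1.12, 0.974 and 0.702 TPM in mimic libraries, ZNF525 at 1.26, 1.09 and 1.36 against 0.957, 1.08 and 1.16 TPM, and ZNF844 at 0.806, 1.10 and 0.754 against 1.36, 1.90 and 1.23 TPM. Just outside were ZNF665 at 0.873, 0.985 and 1.15 against 0.695, 0.962 and 0.592 TPM, ZNF546 at 0.936, 1.05 and 1.15 against 0.640, 0.798 and 0.572 TPM, and ZNF814 at 0.710, 0.722 and 0.921 against 1.11, 1.07 and 0.868 TPM. The minimum let in 1 member, ZNF681, by the control libraries alone, at 1.54, 1.23 and 1.53 against 0.851, 0.866 and 0.815 TPM.

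The partners of KRAB zinc finger proteins included some of far higher level than the members, and none passed the test. Of 31 tested cofactor genes, 0 passed the threshold in limma, 1 was lower and 1 higher at an unadjusted p under 0.05, and the median log2 fold change was -0.02. TRIM28, which KRAB domains bind, was at 239, 266 and 245 TPM in control and 241, 220 and 266 TPM in mimic libraries, and its log2 fold change was -0.05 (adjusted p = 0.938, limma). SETDB1, the histone H3 lysine methyltransferase brought in by TRIM28, was at 21.1, 22.0 and 21.8 against 20.5, 18.8 and 20.1 TPM (log2 fold change -0.12, adjusted p = 0.554, limma). SETDB1 was among 3 cofactors lower in every mimic library (9.68%), near the 10.5% of all genes, and TRIM28 overlapped.

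Zinc finger genes of chromosome 19 that the naming leaves out, and genes that derive from retroviruses or related LTR retrotransposons, were set beside the members. Of 11 tested zinc finger genes with other names, 7 were lower, with a median log2 fold change of -0.13, and 0 passed in limma. At an unadjusted limma p under 0.05, 4 were lower (36.4%), against 7.64% of all genes, and 0 higher, against 3.05%. These 4 were ZNF780B (-0.43), ZFP14 (-0.48), ZFP82 (-0.38) and ZNF780A (-0.29). Of 10 tested genes derived from retroviruses or LTR retrotransposons, 5 were lower, with a median of -0.0024, and 0 passed in limma. At an unadjusted limma p under 0.05, 1 was lower (10%), near the share of all genes, and 0 were higher. That 1 was RTL10, of the retrotransposon-derived RTL family, at 16.5, 18.9 and 18.5 against 13.2, 14.2 and 14.9 TPM. Repeat elements themselves were not analysed here.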

How the data were processed

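RNA-seq was deposited for 6 HUVEC libraries, 3 transfected with a miR-409-3p mimic and 3 with a control RNA. Per the file headers, the authors deposited 1 TPM value per library for each of 45372 Ensembl gene IDs. The submitters' processing notes name hg38 and GRCh38.p13 as builds. Not given in the sources used here are the aligner, the counting program, the annotation and the use of strand.

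Symbols were matched for 45102 IDs, and positions and transcripts came from GENCODE 29 (43348 IDs). Reads per library, 29.8 to 35.8 M, were estimated from the steps of the TPM values over exon length: 71.8% to 72.2% of genes under 100 reads came out whole within 0.02 reads. Of the 206 members, 106 were whole in all 6 libraries, with a median of 142 to 221 reads per library. PCR copies count as reads, since there were no molecular identifiers.

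limma 3.58.1 in R 4.3.3 (trended prior, group as the only term) was fitted on log2(TPM + 1) to the 13680 genes that reached 1 TPM in 3 or more of 6 libraries, with Benjamini-Hochberg adjustment over all of them at 0.05. The fit was tested on simulated data with 200 changed genes, all with a level above 5 TPM, while the median member was at 4.74 TPM. It recovered 39.7% of changes of 1.25-fold, 88.7% of 1.5-fold and 99.3% of 2-fold, and 6.07% of its calls were false. No set test was run.

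Named genes were the members past the threshold, the 5 most abundant, the lowest and highest of each cluster, the 3 nearest the threshold, and the 3 nearest the minimum on either side, and other names are given as chosen for their values or role. The members and gene lists were chosen with earlier results of these data known. Fingers, KRAB and SCAN were counted as letter patterns in translated GENCODE coding sequences. Python 3.11.15, pandas 2.3.3 and matplotlib 3.10.9 were used. Alternatives were other pseudocounts, filters, scalings and priors, a replicate block, each library left out, and protein-coding genes only.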

Additional observations from a re-analysis of the deposited data

How the results depend on the processing

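The members' median log2 fold change stayed below 0 under all 16 alternatives, from -0.18 to -0.11, and from -0.16 to -0.09 relative to all genes. The number of members past the threshold (1 lower and 0 higher as reported) depended on the setting. The calls over all genes, 41 lower and 18 higher as reported, moved too and are given in brackets. It was 2 lower and 1 higher with a minimum of 5 TPM, which kept 103 members (79 and 36), and with median-of-ratios scaling (54 and 33), 1 and 1 with quantile scaling (42 and 34), and 5 and 1 with a robust prior (82 and 37). It was 0 and 0 with no minimum (5 and 6) or an untrended prior (10 and 10). Testing protein-coding genes only, an alternative chosen after seeing the data, gave 10 lower and 2 higher (122 and 54 of 12064 genes). Leaving out 1 library gave 0 to 1 lower and 0 higher (6 to 27 and 6 to 22). For ZNF616 the adjusted p (limma) ran from 0.00973 to 0.151 and passed under 8 of 16 alternatives, at log2 fold changes from -0.70 to -0.58. With the replicate block, 0 members passed in either direction (5 and 9 over all genes), against 39 lower and 7 higher at an unadjusted p under 0.05. The deviations of same-numbered libraries correlated at 0.03, -0.09 and -0.11, and those of differently numbered libraries at -0.03 to 0.11. With 3 libraries per group, this check cannot tell whether the numbers pair the samples. Of 421 values of named genes, 392 kept direction and side of the threshold, and 4 turned: leaving out 1 library moved ZNF787 between -0.0324 and 0.1412 and ZNF155 between -0.0150 and 0.1546, and ZNF580 was at 0.0017 under quantile scaling and 0.0253 without mimic replicate 1. Of 170 cluster medians, 5 moved by more than the spread, 4 of them with a minimum of 5 TPM; the cluster from ZNF554 to ZNF77 was then at 0.17. The cause of these changes was not tested.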

Other observations

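Among the 8 zinc finger genes outside chromosome 19 that passed the threshold, chosen here after their values were seen, 3 of the 7 that fell lie on chromosome 6, which holds 16 of the 230 tested (6.96%). This grouping was not tested. ZNF184 was at 17.7, 19.1 and 19.9 TPM in control and 13.3, 12.8 and 12.4 TPM in mimic libraries, with a difference of -0.52 on the log2 scale (adjusted p = 0.0235, limma). ZNF322 was at 21.1, 21.5 and 22.3 against 15.7, 15.6 and 14.2 TPM (-0.49). ZSCAN26, which has a SCAN domain, was at 18.3, 19.7 and 18.9 against 14.3, 14.3 and 13.4 TPM (-0.41). ZNF267 on chromosome 16 was the 1 that rose, from 18.99, 19.3 and 19.2 TPM to 27.1, 30.1 and 25.1 TPM (0.49, adjusted p = 0.0381, limma). No library of 1 group overlapped the other group in these 4 genes.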
